A study of Homo sapiens with 8 samples.

Results

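The genes described here are 6 metallothioneins (MT2A, MT1X, MT1E, MT1F, MT1G and MT1M), the zinc-sensing transcription factor MTF1 and the zinc exporter SLC30A1. They were chosen by name, and all 8 were found by Ensembl identifier among the 60617 genes of the count table. The libraries were made from poly(A)-selected RNA of MCF-10A, an established non-tumorigenic epithelial cell line from human breast. The lines are labelled Empty and NeuT, and each was studied untreated and with JG-98, an inhibitor of the chaperone Hsp70, at 1 µM for 12 h, which gave 4 groups of 2 replicates. What NeuT stands for, how the lines were derived and whether each is a clone is not said in the labels. The series describes its aim as comparing the sensitivity of transformed cells to JG-98. All groups were grown in the same medium with horse serum, epidermal growth factor, hydrocortisone, insulin and cholera toxin. The labels do not say whether replicates were separate cultures, so p-values measure only the spread between these libraries.

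Metallothioneins are small, cysteine-rich proteins that bind zinc, copper and cadmium and buffer the free zinc of the cell. When zinc rises, MTF1 binds short metal response elements in the promoters of metallothionein genes and of SLC30A1, which moves zinc out of the cytosol, so these genes are widely used as a readout of cellular zinc. Metallothionein genes also respond to glucocorticoids, heavy metals and oxidative stress. No treatment here added metal, and zinc itself was not measured.

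Coding sequences are shown first, because the close likeness of the metallothioneins bears on how reads can be assigned to them. The 6 genes lie in a cluster on chromosome 16, and in GENCODE 29 (GRCh38) each has a coding sequence of 186 bases in 3 coding exons, with 61 codons before the stop. Of those codons 20 encode cysteine, a share of 32.79%, against a median of 2.028% over 19495 genes with a complete coding sequence, of which 28 had a higher share. The sequences below are of the most abundant member, the next most abundant, the one that differed most between the lines and the one with almost no reads, with cysteine codons in capitals.
MT2A: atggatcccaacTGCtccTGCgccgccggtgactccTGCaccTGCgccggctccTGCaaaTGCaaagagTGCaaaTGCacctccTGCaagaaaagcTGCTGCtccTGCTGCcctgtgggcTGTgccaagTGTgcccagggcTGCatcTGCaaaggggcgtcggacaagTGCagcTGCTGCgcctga
MT1E: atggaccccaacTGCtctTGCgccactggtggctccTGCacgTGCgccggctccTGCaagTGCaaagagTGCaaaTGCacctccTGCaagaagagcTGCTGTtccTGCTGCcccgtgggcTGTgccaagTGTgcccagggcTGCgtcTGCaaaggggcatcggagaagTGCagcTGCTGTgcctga
MT1G: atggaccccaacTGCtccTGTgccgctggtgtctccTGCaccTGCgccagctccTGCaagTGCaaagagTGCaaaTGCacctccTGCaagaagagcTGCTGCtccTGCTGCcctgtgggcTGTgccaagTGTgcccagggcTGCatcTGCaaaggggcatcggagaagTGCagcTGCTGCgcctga
MT1M: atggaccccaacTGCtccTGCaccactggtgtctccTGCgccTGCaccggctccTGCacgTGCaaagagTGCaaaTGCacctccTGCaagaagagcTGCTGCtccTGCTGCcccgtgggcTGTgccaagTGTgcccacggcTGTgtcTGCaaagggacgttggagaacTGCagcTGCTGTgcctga
The cysteine codons recur in the same places in all 4. Over the 15 pairs of the 6 metallothioneins, identity of the coding sequence ranged from 88.71% to 95.16%. Over whole transcripts of GENCODE 29, the share of distinct 50-base windows of a gene that also occur in another gene was 18.26% for MT1X, 16.47% for MT1G, 9.865% for MT1M, 7.104% for MT1E, 3.022% for MT2A and 1.218% for MT1F. It was 0.8905% for MTF1 and 0 for SLC30A1. Most of the MT1X share came from ENSG00000259827, a gene that overlaps it on the same strand, and without that gene the share was 3.642%. In the count table that gene covers 18.59% of the exonic bases of MT1X and had 0 counts in every library. How reads in the overlap were counted is not given, so the 0 counts do not show that MT1X lost no reads there. At 100 bases no window of MT2A, MT1E, MT1F, MT1G or MT1M was shared, and 11.34% of those of MT1X were, all with ENSG00000259827. These shares describe GENCODE 29, and 6 of the 8 genes have another start or end in the count table, so the gene models that were counted differ in part. The labels give the read length both as 50 bases single-end and as 100 bases paired-end. How reads with several matches were counted is not given in the sources used here. The split of reads among the metallothioneins, MT2A included, is uncertain to that extent. MT1G and MT1X share 50-base windows with MT2A, which had 1385882 counts in total, against 4465 for MT1G and 22070 for MT1X.

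Promoters were searched for the core of the metal response element, since this is where MTF1 binds. The RefSeq promoter table (GRCh38.p14, 250 bases before to 50 after each gene's start) held 4 of the 8 genes. MT1E, MT1F, MT1G and MT1M had no entry. The letters searched were TGCACNC and TGCGCNC, on both strands, and no match overlapped another. The 250 bases before the start are shown for 3 genes, with matches in capitals.
MT2A, chr16:56608334-56608583, plus strand: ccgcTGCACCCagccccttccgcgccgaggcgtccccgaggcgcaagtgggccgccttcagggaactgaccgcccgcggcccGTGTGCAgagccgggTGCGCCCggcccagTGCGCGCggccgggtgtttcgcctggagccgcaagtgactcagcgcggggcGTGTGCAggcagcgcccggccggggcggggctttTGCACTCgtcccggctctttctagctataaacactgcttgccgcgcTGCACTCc
MT1X, chr16:56682220-56682469, plus strand: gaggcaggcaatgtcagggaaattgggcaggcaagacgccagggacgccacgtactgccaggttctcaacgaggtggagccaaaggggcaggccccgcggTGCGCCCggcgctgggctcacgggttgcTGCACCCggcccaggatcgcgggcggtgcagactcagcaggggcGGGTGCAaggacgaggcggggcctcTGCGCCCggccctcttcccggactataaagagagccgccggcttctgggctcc
SLC30A1, chr1:211579162-211579411, minus strand: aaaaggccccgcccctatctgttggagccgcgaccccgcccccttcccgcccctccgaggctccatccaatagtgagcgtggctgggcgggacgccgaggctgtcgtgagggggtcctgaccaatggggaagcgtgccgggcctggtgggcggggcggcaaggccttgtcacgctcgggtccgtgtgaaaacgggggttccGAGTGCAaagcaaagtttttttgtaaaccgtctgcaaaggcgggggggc
In the whole 300 bases MT2A had 8 matches, MT1X had 4 and SLC30A1 had 2, and MTF1 had 0. Among all 35116 promoters of that length, 29.55% held at least 1 match, 8.6% at least 2, 0.6009% at least 4 and 0.01993% (7 promoters) at least 8. MT1H, a metallothionein of the same cluster, also had 8 matches and had 0 counts in all 8 libraries. A match is a run of letters and not a measured binding site.

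**Figure D1:**
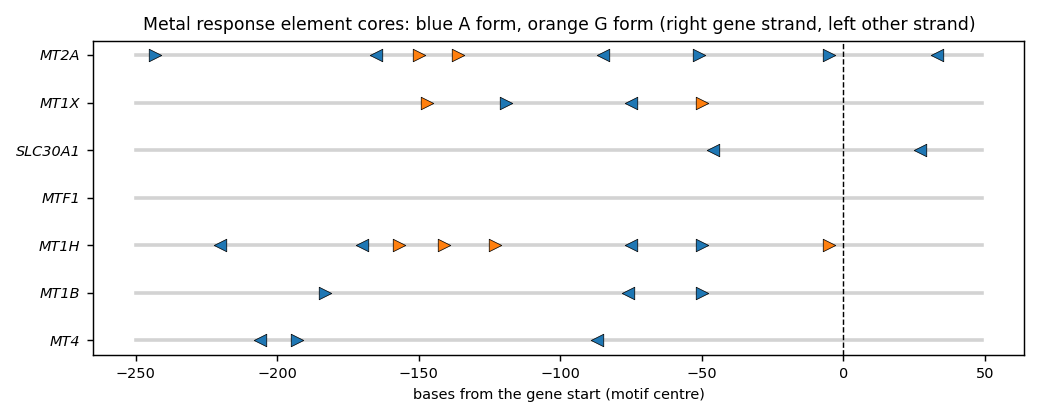
Positions of the metal response element cores in the 4 RefSeq promoters of the genes described and in 3 other metallothionein promoters, with the distance from the gene start in bases on the horizontal axis and 1 row per gene. Each triangle is a match, blue for the form with A and orange for the form with G at the fourth letter, pointing right on the gene's strand and left on the other. MT2A and MT1H hold 8 matches each and MTF1 holds 0.

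Library totals were 55050996 to 56861971 counts, except 37341458 in replicate 1 of Empty cells with JG-98. A count of 0 allows up to 3 counts, or 0.0803 CPM (the count relative to library size, scaled by TMM normalisation factors) in the shallowest library and 0.0528 in the deepest, for counting error only. All 10 epithelial markers were above 1 CPM in every group and summed to 18318 to 20595 CPM per library, so the labelled cell type had its defining markers. Single markers differed between untreated lines, with 6 of the 10 called higher in NeuT and 2 lower, such as TP63 (log2 1.45) and EPCAM (-1.07), where 42.0% of all genes were called. Replicates of NeuT with JG-98 differed most from each other, with a chi-square of 22.0 per gene against 4.52 to 8.20 in the other groups. Fibroblast markers summed to 8.52 to 9.76 CPM in Empty and 68.4 to 83.0 CPM in NeuT libraries, with decorin (DCN) carrying the NeuT sums (62.4 to 77.5 CPM, against 2.47 to 3.58 CPM in Empty) and COL1A1 at 4.70 to 5.83 CPM in all libraries, while 4 of the 6 (COL1A2, COL3A1, LUM and PDGFRB) stayed under 1 CPM in every group. Leukocyte markers summed to 5.01 to 6.99 CPM in Empty and 10.8 to 12.3 CPM in NeuT, carried by CD14, with the other 4 under 1 CPM and MS4A1 at 0 counts. Endothelial markers summed to 12.3 to 17.5 CPM in Empty and 9.29 to 11.1 CPM in NeuT, carried by PECAM1, which was lower in untreated NeuT (log2 -0.46, edgeR adjusted p = 0.0157), while CDH5, under 1 CPM in every library, was higher (2.22, adjusted p = 0.00782). The part of these markers in the differences between lines given below was not tested.

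MT2A, the most widely expressed human metallothionein, made up most of the metallothionein RNA of these cells. The 6 metallothioneins together took 0.333% to 0.421% of all counts in a library, and MT2A made up 85.4% to 89.0% of that sum. By CPM, MT2A ranked 16 among all genes in each of the 4 groups. Levels between genes were compared as CPM per kilobase of the deposited gene length. In untreated Empty cells the order was MT2A at 3188, MT1E at 350, MT1X at 27.4, SLC30A1 at 19.1, MT1F at 12.2, MT1G at 7.75 and MTF1 at 3.93 CPM per kilobase. With the length of the coding transcript shown above in place of the deposited length, MT1F (32.8) stood above SLC30A1 (20.5), and MT1G (14.3) below it. In untreated NeuT cells MT1F (20.6), MT1G (20.6) and SLC30A1 (19.1) lay close to each other on the deposited length, so neighbours in this part of the order are not separated.

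MT1M had 1 count in all 8 libraries together, in replicate 1 of untreated NeuT cells, and was left out of the tests by the filter on low counts. The other 7 genes were tested. The chromosome 16 cluster held 15 metallothionein genes and pseudogenes over 119.1 kb, of which 5 (MT2A, MT1E, MT1F, MT1G and MT1X) had 100 or more counts in total. MT4, MT3, MT1A, MT1CP and MT1H had 0 counts in every library. MT1M lies between MT1E and MT1F, so a gene with almost no reads sat between a pair with many.

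**Figure D2:**
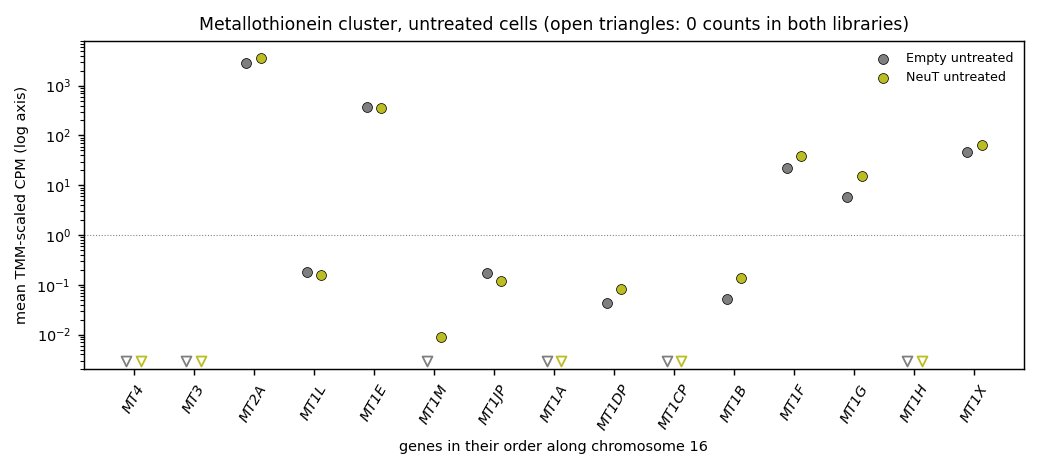
Metallothionein genes along the chromosome 16 cluster in order of position, with the mean CPM of untreated Empty and untreated NeuT cells (2 libraries each) on a log axis and open triangles for genes with 0 counts in both libraries. MT2A stands highest at 2914 CPM in Empty and 3528 CPM in NeuT, and 5 of the 15 genes lie above the dotted line at 1 CPM.

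The first comparison asks whether the metallothioneins and their regulators differed between the lines without the drug. MT2A, MT1X, MT1F and MT1G were higher in untreated NeuT than in untreated Empty cells, by 1.21-fold to 2.65-fold, while MT1E, MTF1 and SLC30A1 did not pass the test. In bulk RNA, fewer cells of a kind and less RNA per cell cannot be told apart. In all, 4 of the 7 tested genes were called (edgeR quasi-likelihood test, Benjamini-Hochberg adjusted p under 0.05), all of them higher. The lines differed widely, and 42.0% of all 17693 tested genes were called in this comparison (21.2% higher, 20.8% lower). With library totals in place of TMM factors 40.7% of these calls were higher, in place of 50.5%. The members' 4 of 7, all higher, are read beside the 21.2% called higher, and the difference between these shares was not tested. The median log2 difference of the 7 genes was 0.28, against -0.02 over all tested genes.

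MT1G (ENSG00000125144, chr16:56666731-56668065, minus strand) differed most. Its level was 5.50 and 6.14 CPM in untreated Empty, 5.88 and 5.51 CPM in Empty with JG-98, 15.4 and 15.4 CPM in untreated NeuT, and 15.5 and 13.8 CPM in NeuT with JG-98. All 4 NeuT libraries lay above all 4 Empty libraries. The log2 difference between untreated lines was 1.41 (SE 0.107, edgeR adjusted p = 1.31e-08), a 2.65-fold higher level (95% interval 2.27 to 3.10). It rested on 558 counts per library on average, fewer than for any other tested gene of the group.

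MT1F (ENSG00000198417, chr16:56657731-56660698, plus strand) was at 22.0 and 23.2 CPM in untreated Empty and at 39.7 and 36.7 CPM in untreated NeuT. With JG-98 it was at 26.2 and 21.9 CPM in Empty and at 38.0 and 36.3 CPM in NeuT, so the lines did not overlap. The log2 difference between untreated lines was 0.76 (SE 0.086, edgeR adjusted p = 1.85e-06), or 1.69-fold.

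MT1X (ENSG00000187193, chr16:56682470-56684196, plus strand) was at 46.7 and 47.9 CPM in untreated Empty and at 62.4 and 63.6 CPM in untreated NeuT. With the drug it was at 45.6 and 40.2 CPM in Empty and at 56.8 and 49.7 CPM in NeuT. Each NeuT library lay above each Empty library, by little where treated NeuT (49.7 CPM) is set against untreated Empty (47.9 CPM). The untreated lines differed by 0.41 on the log2 scale (SE 0.076, edgeR adjusted p = 0.000283), or 1.33-fold.

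MT2A (ENSG00000125148, chr16:56608584-56609497, plus strand) was at 3035 and 2792 CPM in untreated Empty, 3216 and 2855 CPM in Empty with JG-98, 3586 and 3470 CPM in untreated NeuT, and 3751 and 3302 CPM in NeuT with JG-98. The NeuT libraries all lay above the Empty libraries, with a gap smaller than the spread between replicates in the drug-treated groups. The log2 difference between untreated lines was 0.28 (SE 0.069, edgeR adjusted p = 0.0045), or 1.21-fold (95% interval 1.09 to 1.34). Without replicate 2 of untreated Empty cells the call was lost (adjusted p = 0.0794). The metallothionein sum, which MT2A sets, was 3358 ± 174 CPM in untreated Empty, 3534 ± 268 in Empty with JG-98, 3995 ± 45.0 in untreated NeuT and 4022 ± 370 in NeuT with JG-98 (SD, n = 2).

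MT1E (ENSG00000169715, chr16:56625475-56627112, plus strand), the second most abundant metallothionein, did not follow the other 4. It was at 372 and 365 CPM in untreated Empty, 429 and 421 CPM in Empty with JG-98, 323 and 377 CPM in untreated NeuT, and 423 and 359 CPM in NeuT with JG-98. The lines overlapped, and the log2 difference between untreated lines was -0.07 (SE 0.078, edgeR adjusted p = 0.497), with a 95% interval of 0.847 to 1.07 for the fold. That interval does not overlap those of MT2A (1.09 to 1.34), MT1X (1.19 to 1.49), MT1F (1.49 to 1.91) or MT1G (2.27 to 3.10). The difference between genes was not tested itself.

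MTF1 (ENSG00000188786, chr1:37809574-37859592, minus strand), the zinc sensor, was at 27.8 to 35.8 CPM in all 8 libraries, with 30.8 and 32.0 CPM in untreated Empty and 31.4 and 34.2 CPM in untreated NeuT. The untreated groups overlapped, and the difference of 0.06 on the log2 scale did not pass (SE 0.083, edgeR adjusted p = 0.58). SLC30A1 (ENSG00000170385, chr1:211571568-211579161, minus strand), the exporter that MTF1 induces, was at 115 and 109 CPM in untreated Empty and 110 and 115 CPM in untreated NeuT. Its difference of 0.0035 on the log2 scale did not pass either (SE 0.061, edgeR adjusted p = 0.97), with a 95% interval of 0.917 to 1.10 for the fold. Thus 4 metallothioneins were higher in untreated NeuT cells while SLC30A1 and MTF1 did not pass.

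**Figure D3:**
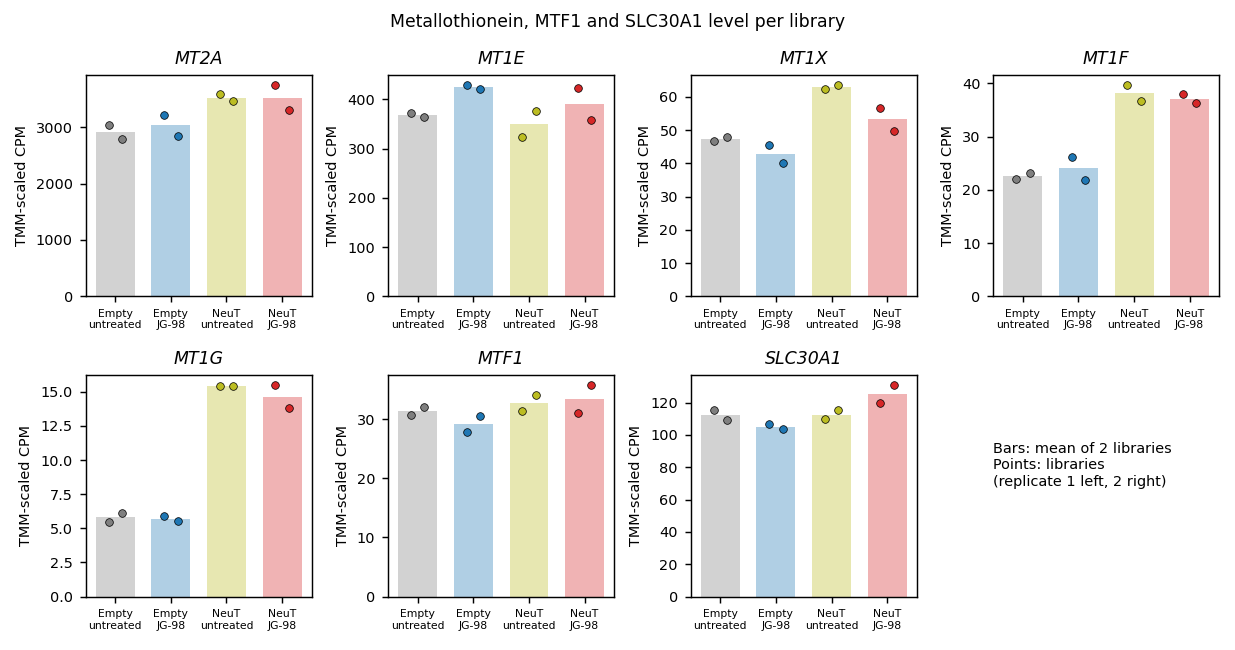
TMM-scaled CPM of the 7 tested genes, 1 panel each with an axis from 0, where points are the 2 libraries of a group and bars their mean, for Empty and NeuT cells without and with JG-98. MT1G, MT1F, MT1X and MT2A are higher in all NeuT than in all Empty libraries, and SLC30A1 reaches its highest values (119 and 131 CPM) in NeuT with JG-98.

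With JG-98 in both arms, 5 of the 7 genes were called between the lines, all higher in NeuT, against 41.7% of all tested genes (21.7% higher, 20.0% lower). With library totals 41.0% of these calls were higher, in place of 52.0%. The log2 differences were 1.37 for MT1G (edgeR adjusted p = 2.49e-08), 0.63 for MT1F (1.4e-05), 0.32 for MT1X (0.00311), 0.25 for SLC30A1 (0.00303) and 0.22 for MT2A (0.0201). MT2A lost its call with library totals (log2 difference 0.14, adjusted p = 0.109), without replicate 2 of Empty with JG-98 (adjusted p = 0.224), without replicate 1 of NeuT with JG-98 (0.132) and with only the 4 libraries compared (0.0671). MT1X lost its call without replicate 2 of Empty with JG-98 (0.0669). MT1E was at -0.12 (adjusted p = 0.24) and MTF1 at 0.19 (0.0841). Without replicate 1 of NeuT with JG-98, MTF1 passed (adjusted p = 0.00678) and MT1E passed as lower in NeuT (log2 difference -0.24, adjusted p = 0.00791). These differences share no library with the untreated comparison. Both come from 1 fit of all 8 libraries and compare the same lines, so they are not independent results.

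SLC30A1 passed the test between lines with the drug and not without it. It was at 107 and 103 CPM in Empty and 119 and 131 CPM in NeuT with JG-98, without overlap. The 1.19-fold difference (95% interval 1.09 to 1.30) stood beside 1.00-fold without the drug. The test of that change, the interaction of line and drug, gave a log2 value of 0.25 (SE 0.086) with an unadjusted p of 0.0108, and it failed the correction over all genes (edgeR adjusted p = 0.53).

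The second question is whether JG-98 moved these genes within a line. In Empty cells 0 of the 7 tested genes were called (edgeR, and also DESeq2 and limma-voom), 1 had an unadjusted p under 0.05, and 0.339% of all tested genes were called (0.260% higher, 0.0791% lower). In NeuT cells 0 of 7 were called by the same 3 tools, 2 had an unadjusted p under 0.05, and 3.01% of all genes were called (2.01% higher, 1.01% lower). These shares of all genes are those of edgeR. Over all genes DESeq2 called 151 in Empty and 722 in NeuT, and limma-voom called 44 and 504. The edgeR backgrounds rest on single libraries. Leaving out 1 library moved the 60 genes called in Empty to between 9 and 389, and the calls turned from 46 higher and 14 lower to 5 and 11 without replicate 1 of untreated Empty, 3 and 10 without replicate 2, and 3 and 6 without replicate 1 of Empty with JG-98. In NeuT the 533 genes became between 134 (without replicate 1 of untreated NeuT) and 2112 (without replicate 1 of NeuT with JG-98). The median log2 change of the 7 genes was -0.03 in Empty and -0.00065 in NeuT, against -0.0033 and 0.00021 over all tested genes. The comparisons between lines and those within a line share libraries, so their values are given side by side and were not counted as independent.

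MT2A changed by 0.06 on the log2 scale in Empty (SE 0.069, edgeR adjusted p = 0.851) and by -0.00065 in NeuT (SE 0.069, adjusted p = 0.999). The 95% intervals of the fold were 0.940 to 1.15 and 0.902 to 1.11. Its treated and untreated libraries overlapped in both lines.

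MT1X was lower with the drug in both libraries of both lines, and missed the threshold in each. Its log2 change was -0.24 in NeuT (SE 0.076, unadjusted p = 0.00521, edgeR adjusted p = 0.102) and -0.15 in Empty (SE 0.077, adjusted p = 0.572). In NeuT the call depended on the settings, and it passed without replicate 1 of NeuT with JG-98 (adjusted p = 0.0033) and with no filter on low counts (0.0226). MT1E was higher with the drug in both Empty libraries, by 0.21 on the log2 scale (SE 0.078, unadjusted p = 0.0192, edgeR adjusted p = 0.368), and it passed when only the 4 Empty libraries were fitted (adjusted p = 0.0213). In NeuT its groups overlapped (log2 change 0.16, adjusted p = 0.349), and it passed without replicate 2 of NeuT with JG-98 (0.0463).

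SLC30A1 was at 0.15 on the log2 scale in NeuT (SE 0.061, unadjusted p = 0.0234, edgeR adjusted p = 0.223) and at -0.10 in Empty (SE 0.061, adjusted p = 0.655). Both treated NeuT libraries lay above both untreated ones, and both treated Empty libraries lay below. Without replicate 1 of NeuT with JG-98 the NeuT change passed (adjusted p = 0.0171) and so did the interaction (log2 value 0.30, adjusted p = 0.0224). In that setting calls over all 17693 genes also rose, from 533 to 2112 for the drug in NeuT and from 1 to 751 for the interaction, so the gained calls of SLC30A1 and MT1X stand among many. MT1F, MT1G and MTF1 did not pass in either line, with log2 changes of 0.08, -0.03 and -0.10 in Empty and -0.04, -0.08 and 0.03 in NeuT. The interaction was called for 0 of the 7 genes by edgeR, DESeq2 and limma-voom, with 1 at an unadjusted edgeR p under 0.05. Over all genes edgeR called 1 (0.00565%), limma-voom 1 and DESeq2 26.

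In the authors' deposited tables of treated against untreated cells, 0 of these 7 genes had an adjusted p under 0.05 either. The lowest there was that of MT1X in NeuT, with a log2 change of -0.25 and an adjusted p of 0.109 in the authors' deposited table.

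**Figure D4:**
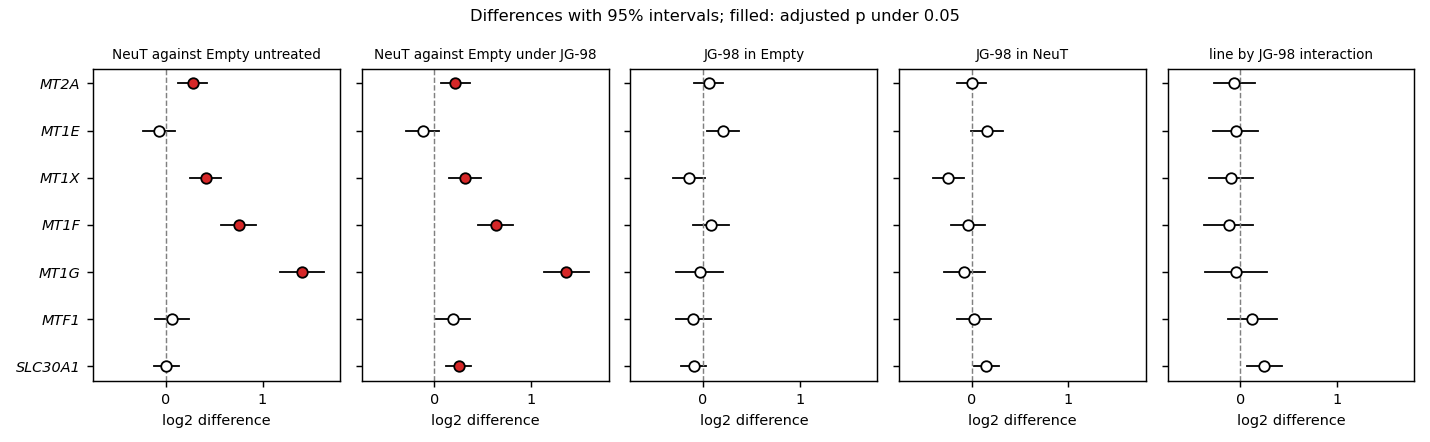
Log2 differences of the 7 tested genes with 95% intervals, 1 panel per comparison, filled where the adjusted p was under 0.05. The filled points are the 4 and 5 genes higher in NeuT without and with JG-98, from 0.22 for MT2A to 1.41 for MT1G, and the panels of the drug within a line and of the interaction hold 0 filled points.

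Other metallothioneins and metal transporters were taken from lists of 12 further metallothionein genes and pseudogenes, 9 zinc exporters (the SLC30 family), 14 zinc importers (the SLC39 family), 12 copper-handling genes and 6 zinc chaperone genes with TMEM163. Of the 12 further metallothioneins 3 had enough counts to be tested (MT1L, MT1JP and MT1XP1), and 0 were called between untreated lines (42.0% of all genes) or by the drug in Empty (0.339%) or NeuT (3.01%). MT1XP1, a processed copy of MT1X on chromosome 1, was called higher in NeuT with the drug (log2 1.56, SE 0.564, edgeR adjusted p = 0.0345). The call was lost with DESeq2 (adjusted p = 0.0898), with no filter on low counts (0.0591), with only the 4 libraries compared (0.0679) and without any 1 of the 4 libraries with JG-98 (0.0618 to 0.159). MT1XP1 was picked out after its values were seen, and had 5 and 6 counts in Empty with JG-98 and 17 to 23 counts in the other 6 libraries. It shares transcript windows of 50 bases with MT1X, MT2A and MT1G, so reads of those genes cannot be told apart from its own there.

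Zinc importers held the largest difference between untreated lines among the zinc transporters tested. SLC39A8, a plasma membrane importer of zinc, manganese and cadmium, was at 127 and 124 CPM in untreated Empty and 265 and 263 CPM in untreated NeuT, and at 120 and 116 against 263 and 244 CPM with the drug. The lines lay far apart without and with the drug (log2 difference 1.08, SE 0.056, edgeR adjusted p = 1.11e-10 untreated). Of the 10 importers tested 4 were higher and 1 was lower in untreated NeuT, and 5 and 1 with the drug, against the 42.0% and 41.7% of all genes given above. SLC39A4, the importer of dietary zinc, was 0.43 higher (adjusted p = 3.62e-05) and SLC39A13, a zinc transporter of the secretory pathway, was 0.37 higher on the log2 scale (6.44e-05) in untreated NeuT. SLC39A3, another importer at the plasma membrane, was the lower one, at -0.27 untreated (edgeR adjusted p = 0.0148) and -0.34 with the drug (0.00387). Its untreated call was lost without replicate 1 or 2 of untreated Empty (0.091 and 0.0591) or replicate 1 of untreated NeuT (0.213). The untreated count fell from 5 to 3 without replicate 2 of untreated Empty or replicate 1 of untreated NeuT. The median of the 10 was 0.14 untreated, against -0.02 over all genes. SLC39A7 was listed at 0 in all libraries and cannot be described further, and 69.1% of the exonic bases of SLC39A1 overlap other genes.

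With JG-98, 1 of the 10 importers was called in NeuT and 0 in Empty, against 3.01% and 0.339% of all genes. SLC39A14, an importer of zinc, iron and manganese, was at 181 and 172 CPM in untreated and 208 and 250 CPM in treated NeuT cells, without overlap but with replicates far apart under the drug. Its log2 change was 0.38 in NeuT (SE 0.074, edgeR adjusted p = 0.0108) and 0.08 in Empty (adjusted p = 0.78), and the interaction was 0.30 (adjusted p = 0.551). The NeuT call was lost without either replicate of untreated NeuT (adjusted p = 0.0944 and 0.219) and with only the 4 NeuT libraries (0.0753). The interaction passed without replicate 1 of NeuT with JG-98 (0.00173). SLC39A14 was also among the importers higher in NeuT than in Empty with the drug (log2 0.45, adjusted p = 0.000153).

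Of the 6 exporters tested besides SLC30A1, 1 was higher and 2 were lower in untreated NeuT, and the same numbers were called with the drug, where 42.0% and 41.7% of all genes were called. SLC30A4, which loads zinc into vesicles, was 0.49 higher on the log2 scale (SE 0.106, edgeR adjusted p = 0.00124). SLC30A5, which supplies zinc to the early secretory pathway, was 0.32 lower, with a log2 difference of -0.32 (adjusted p = 0.000841), and SLC30A9, a mitochondrial zinc exporter, was at -0.17 (adjusted p = 0.0366). SLC30A9 lost its untreated call without any 1 of the 4 untreated libraries (adjusted p from 0.1 to 0.24) and with DESeq2 (0.0558). With the drug it was at -0.23 (adjusted p = 0.00685) and lost its call without replicate 1 of Empty with JG-98 (0.124). JG-98 moved 0 of the 6 past the threshold in either line, against 0.339% of all genes in Empty and 3.01% in NeuT. SLC30A2, SLC30A8 and SLC30A10 had 0 to 2 counts in all libraries together.

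Copper-handling genes were included because metallothioneins also bind copper. Of 12 tested, 4 were higher and 3 lower in untreated NeuT, and 5 and 3 with the drug, against 42.0% and 41.7% of all genes. The untreated count fell from 7 to 4 without either replicate of untreated NeuT, and the count with the drug from 8 to 5 without replicate 1 of Empty with JG-98. ATP7B, a copper-exporting ATPase, was at 6.62 and 5.47 CPM in untreated Empty and 13.4 and 13.1 CPM in untreated NeuT (log2 difference 1.13, SE 0.125, edgeR adjusted p = 1.34e-06). COMMD1, a regulator of copper export, was 0.45 higher (adjusted p = 0.00107), with 35.16% of its exons overlapped by other genes, and ATOX1, the copper chaperone of ATP7A and ATP7B, was 0.32 higher (adjusted p = 0.000432). The 3 lower genes were the same without and with the drug. SCO1, which delivers copper to cytochrome c oxidase, was at 75.5 and 73.1 CPM in untreated Empty and 60.9 and 58.7 CPM in untreated NeuT, and at 71.4 and 69.5 against 51.9 and 51.1 CPM with the drug. Its log2 difference was -0.31 untreated (SE 0.059, edgeR adjusted p = 0.000384) and -0.45 with the drug (adjusted p = 1.03e-05). COX17, a copper chaperone of the same enzyme, was at -0.25 and -0.45 (adjusted p = 0.0198 and 0.000307), and SOD1, the copper and zinc superoxide dismutase, at -0.22 and -0.30 (0.00648 and 0.0008). SOD1 was named after its values were seen, to complete the 3. The untreated calls of COX17 and SOD1 were lost without replicate 1 of untreated Empty (adjusted p = 0.194 and 0.0538), replicate 1 of untreated NeuT (0.124 and 0.0652) or its replicate 2 (0.1 and 0.0669). The lines did not overlap for any of these 3. Other genes cover 17.63% of the exonic bases of COX17. Among the 12 tested they also cover 63.97% of those of SLC31A2 and 88.07% of those of SCO2. SLC31A1, the main copper importer, was the 1 of 12 called with JG-98 in NeuT (3.01% of all genes), at 60.9 and 63.0 CPM untreated and 72.0 and 79.5 CPM treated. Its log2 change was 0.29 (SE 0.064, edgeR adjusted p = 0.0197) in NeuT and -0.0020 in Empty (adjusted p = 0.995), with an interaction of 0.29 (adjusted p = 0.504). The NeuT call was lost without replicate 1 or 2 of untreated NeuT (0.243 and 0.183), replicate 2 of NeuT with JG-98 (0.109) or replicate 2 of untreated Empty (0.0505), and with only the 4 NeuT libraries (0.102). The interaction passed without replicate 1 of NeuT with JG-98 (0.0152).

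Among the 5 zinc chaperone genes tested, 0 were called between untreated lines or by JG-98 in either line, against 42.0% of all genes between untreated lines and 0.339% (Empty) and 3.01% (NeuT) for the drug. ZNG1A, a zinc chaperone GTPase, was lower in NeuT with the drug (log2 -0.30, edgeR adjusted p = 0.0346), a call lost without replicate 1 of Empty with JG-98 (0.366) or replicate 2 of NeuT with JG-98 (0.16), with limma-voom (0.0566) and with only the 4 libraries compared (0.0583). ZNG1A belongs to a family of near-identical copies, so its counts are uncertain.

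**Figure D5:**
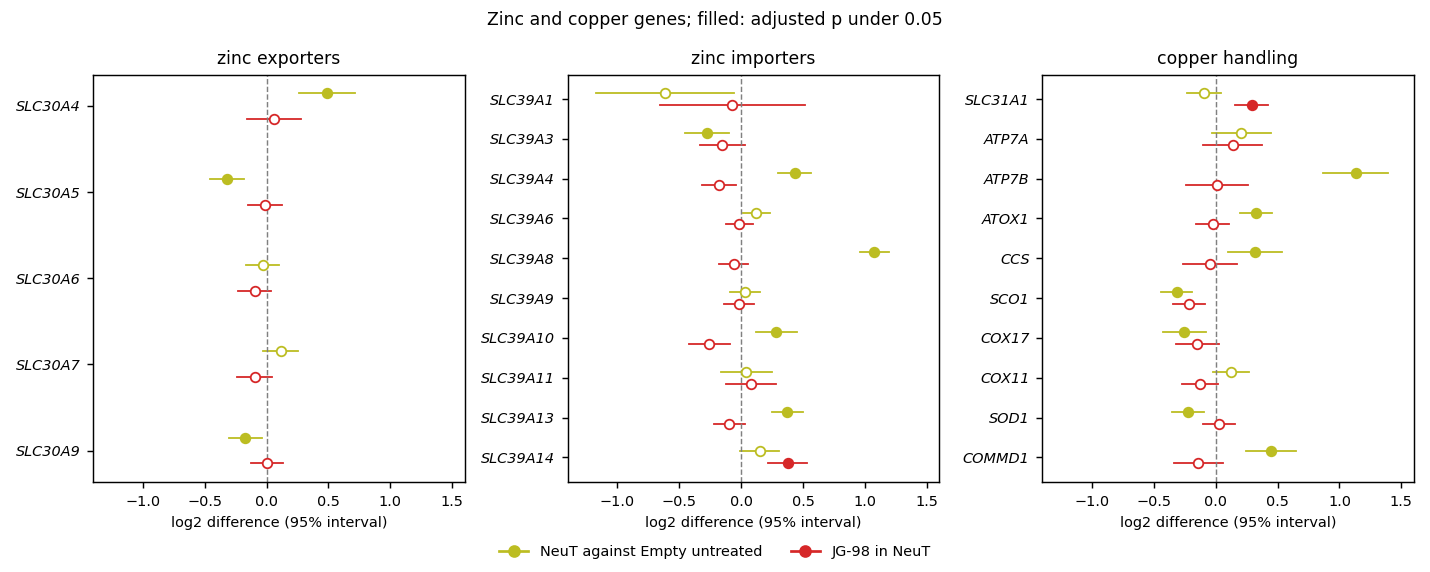
Log2 differences with 95% intervals for zinc exporters other than SLC30A1, zinc importers and copper-handling genes that averaged 50 counts or more per library, for NeuT against Empty untreated (olive) and JG-98 against untreated in NeuT (red), filled where the adjusted p was under 0.05. SLC39A8 (1.08) and ATP7B (1.13) lie farthest to the right between lines, and SLC39A14 (0.38) and SLC31A1 (0.29) are the 2 filled points for the drug.

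The genes whose levels over the 8 libraries were most like that of MT2A, by Pearson correlation of log2 CPM among 13065 genes, were RPL37 (r = 0.9947), METTL9 (0.9919) and RPL19 (0.9825), of which RPL37 and RPL19 encode ribosomal proteins. For SLC30A1 they were SEL1L (0.9706), a part of the machinery for degrading misfolded proteins of the endoplasmic reticulum, TMX3 (0.9628), an oxidoreductase of the endoplasmic reticulum, and WDR25 (0.9607). These are the highest of many correlations over 8 libraries that share 4 groups, and they describe these libraries only.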

How the data were processed

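Members and gene lists were chosen with earlier results of these data known. Raw counts for the 8 libraries stood in a single table that the authors deposited; Trim Galore 0.5.0, HISAT2 2.1.0, featureCounts 1.6.3 and build GRCh38 are named in the submitters' processing notes. Whether strand was used and how multi-mapping reads were counted is not given in the sources used here. The authors also deposited, per the file headers, 1 table per line with a log2 fold change, p-values and test scores per gene. Symbols were found for 60261 of 60617 identifiers. The number of columns matched to no sample was 0.

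Counts were analysed with edgeR 4.0.16 in R 4.3.3. Genes passing filterByExpr (minimum count 10, total 15; 17693 genes) were scaled by TMM, and all 8 libraries entered 1 robust quasi-likelihood model of the 4 groups. Benjamini-Hochberg adjustment ran over all tested genes, and adjusted p-values under 0.05 were called. Standard errors are the log2 change divided by the square root of F, and 95% intervals use edgeR's degrees of freedom. An exact permutation test of 2 against 2 libraries cannot reach 0.05. The script was tested on simulated data. DESeq2 1.42.0, limma 3.58.1 (voom), other scalings and filters, a replicate block and leaving out each library were alternatives. Sequences came from GENCODE 29 and RefSeq and were compared with Python 3.11.15 and Biopython 1.88.

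Every member is described. A list gene is named with values where it was called with a mean of at least 50 counts, up to the 3 largest changes per list and comparison, and also where a count of 5 or fewer or a reading limit called for it. Differences between replicates correlated between groups with r from -0.101 to 0.244, and with 2 replicates per group and no label tying equal numbers together, the libraries were not treated as pairs.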

Additional observations from a re-analysis of the deposited data

How the results depend on the processing

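The calls of MT1F and MT1G between lines, without and with JG-98, held in all 17 alternatives run. With 0 members called by JG-98 in NeuT cells in the reported fit, 1 was called with no filter on low counts, and 0 to 2 when 1 library was left out. In Empty cells 1 was called with only the 4 libraries compared. The interaction had 0 to 1 members called when 1 library was left out. Between lines with JG-98 it was 3 to 6 of 7, and 3 to 4 between untreated lines. With a replicate block, 6 members were called between lines with JG-98 (MTF1 added, adjusted p = 0.0447), and the block changed no other member's call. In the 4 NeuT libraries, the crossed pairing of replicate numbers called 912 genes, 1 of them a member. The numbers as labelled called 391, and the fit without pairing called 183. The crossed pairing was added after these data were seen, so these counts cannot decide which pairing, if any, holds. With library totals, the difference between untreated lines was -0.0057 for MTF1 and -0.065 for SLC30A1, and the SLC31A1 change in Empty was 0.0011. The last was 0.00078 with at least 10 counts in every library and 0.0021 with only the 4 libraries compared, where MT2A in NeuT was 0.0029. The cause was not tested, and 0 of these values passed the threshold.

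Leaving out 1 library at a time turned the sign of small values. In Empty, MT2A ranged from -0.029 to 0.14, MT1F from -0.048 to 0.21, MT1G from -0.11 to 0.047 and SLC31A1 from -0.035 to 0.031. In NeuT, MT2A ranged from -0.097 to 0.081, MT1F from -0.10 to 0.017 and MTF1 from -0.089 to 0.12. Interactions ranged from -0.16 to 0.029 for MT2A, -0.18 to 0.053 for MT1E, -0.25 to 0.0083 for MT1F and -0.13 to 0.035 for MT1G. Between untreated lines, MT1E ranged from -0.17 to 0.044 and SLC30A1 from -0.036 to 0.047. Over the alternatives, zinc importers called between lines numbered 3 to 7 untreated and 5 to 6 with JG-98 (5 and 6 reported), exporters 2 to 3 and 2 to 4 (3 and 3), and copper-handling genes 4 to 7 and 5 to 9 (7 and 8). With 2 libraries per group, small differences are the least certain.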
